A study of Mus musculus with 18 samples.

Results

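Secreted factors of growth and tissue repair were followed in bone marrow-derived macrophages (BMDMs): the genes Vegfa, Hbegf, Areg, Ereg, Pdgfb, Igf1, Hgf, Osm, Lif and Inhba, 10 of the 20615 genes in the deposited table, chosen by name. The RNA of 18 samples had been sequenced, 3 in each of 6 groups. BMDMs came from C57BL/6 (B6) mice and from the C57BL/6.NOD-Aec1Aec2 mouse (SjSS), which carries the Idd3 and Idd5 intervals of the non-obese diabetic mouse on the B6 background and models Sjögren's syndrome. All mice were female and 7 to 12 weeks old. BMDMs of each strain were untreated (control), given apoptotic cells (AC), which were thymocytes killed with dexamethasone, at 5 per BMDM for 2 h, or given CpG, an oligonucleotide that mimics microbial DNA, at 1 µM for 6 h. After the AC were washed off, the additional incubation was 3 h by the labels, so that AC and CpG differ in time as well as in stimulus. The cells had matured over 7 days in 20% supernatant of L929, a mouse fibroblast line that makes M-CSF, and were treated in 5%. There were 3 mice of each strain, fewer than its samples, so that samples of a strain share mice. The main test takes no account of this. Neither which samples share a mouse, such as those of equal number, nor the strain that gave the thymocytes is stated in the sources used here. The p-values measure the spread between these samples.

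Macrophages that clear dying cells are known to release factors that help a tissue heal. HB-EGF, amphiregulin and epiregulin are made as membrane-bound precursors, are cut free by proteases and act through the EGF receptor on epithelium and fibroblasts. VEGF-A drives vessel growth, PDGF-B recruits pericytes and fibroblasts, IGF-1 and HGF support survival and regrowth of parenchymal cells, oncostatin M and LIF signal through receptors that share gp130, and activin A, the dimer of the chain encoded by Inhba, belongs to the TGF-beta family.

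The total of estimated counts per sample ran from 30688336 to 57139662, with a median of 47912525. The 8 macrophage markers (Adgre1, Itgam, Csf1r, Cd68, Mertk, Fcgr1, Lyz2 and Cd14) summed to between 15105 and 23748 CPM, and none was at 0. Of 15 T-lineage markers, 14 were under 1 CPM in every sample. A level in CPM is a count as a share of its library's total, the total having been scaled by TMM, the trimmed mean of M-values in edgeR. In bulk RNA, fewer cells of a type and less RNA per cell cannot be told apart.

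Transcript levels of the factors spanned more than 3 orders of magnitude. Per kilobase of exon, Igf1 led with a mean of 51.2 CPM over the 18 samples, followed by Vegfa with 24.7 and Pdgfb with 15.2. Osm had 6.36, Hgf 4.22 and Inhba 2.14 CPM per kilobase. Lif with 0.822 and Hbegf with 0.795 were neighbours whose ranges over samples (0.0551 to 2.53 and 0.0441 to 2.19) covered each other. Ereg with 0.0214 and Areg with 0.0176 CPM per kilobase stood at the detection limit, with 75 and 17 counts over all 18 samples, and both failed edgeR's filter on low counts, so that 8 of the 10 factors were tested. No factor lies on chromosome 1 or 3, where the NOD intervals are.

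**Figure D1:**
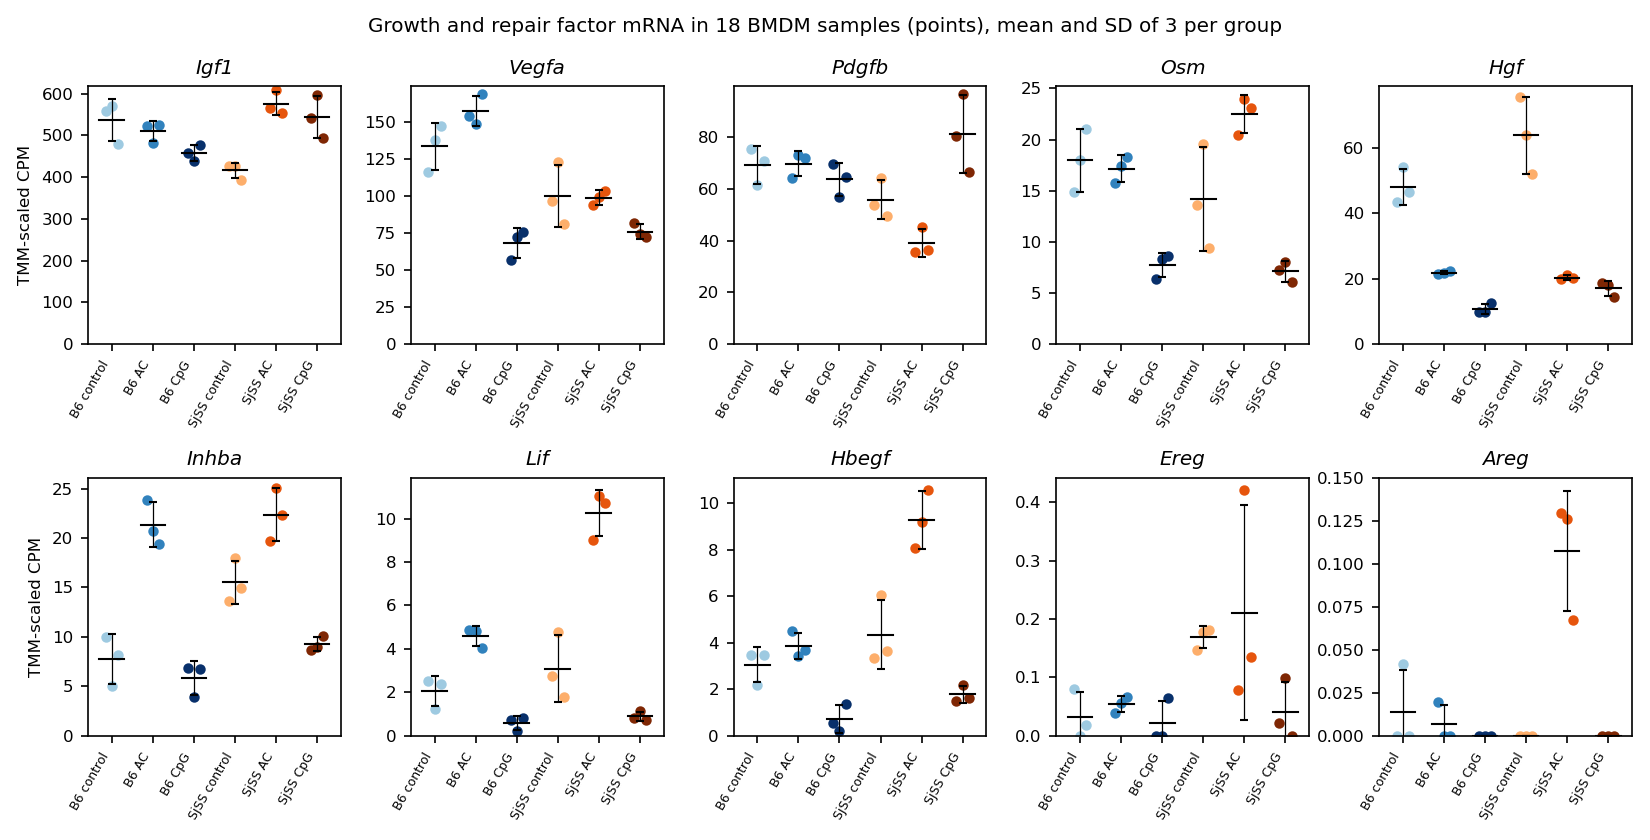
TMM-scaled CPM (y axes, linear, each from 0) of the 10 factors in the 3 samples of each group, with lines and bars for the mean and SD. Lif and Hbegf were highest in AC treated SjSS BMDMs, with means of 10.3 and 9.28 CPM, and Hgf was highest in the control groups, with means of 48.1 and 63.8 CPM.

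The responses had a common outline. CpG lowered most factors in both strains, whereas AC raised Lif and Inhba and lowered Hgf in both, and raised Hbegf, Osm and Igf1 and lowered Pdgfb in SjSS BMDMs. The edgeR quasi-likelihood test was run on all 15789 genes that passed the filter, with Benjamini-Hochberg adjustment. A factor is said to have risen or fallen at an adjusted p under 0.05, and is named as called where its log2 fold change was also over 1.3 in size, the threshold of the study's methods. With AC in B6, 2 of 8 factors rose and 1 fell, beside 20.0% and 18.3% of all tested genes, and 1 was called, beside 4.47%. With AC in SjSS, 5 rose and 2 fell, beside 28.6% and 29.4%, and 2 were called, beside 12.9%. The median log2 fold change of the factors was 0.12 and 0.50 in these responses, against 0.00 and -0.02 for all tested genes. When totals were not scaled, an alternative described with Osm, 2 rose and 3 fell for AC in SjSS, beside 13.2% and 56.6% of all tested genes, and 0 rose and 8 fell for CpG in B6, beside 20.0% and 41.6%. With CpG in B6 after scaling, 0 rose and 6 fell, beside 28.1% and 29.8%, and 3 were called, beside 12.7%. With CpG in SjSS, 2 rose and 6 fell, beside 27.8% and 26.4%, and 2 were called, beside 9.26%. Here the factors' medians were -1.09 and -0.86, against -0.04 and -0.01 for all tested genes. The AC and CpG responses of a strain share its control samples.

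**Figure D2:**
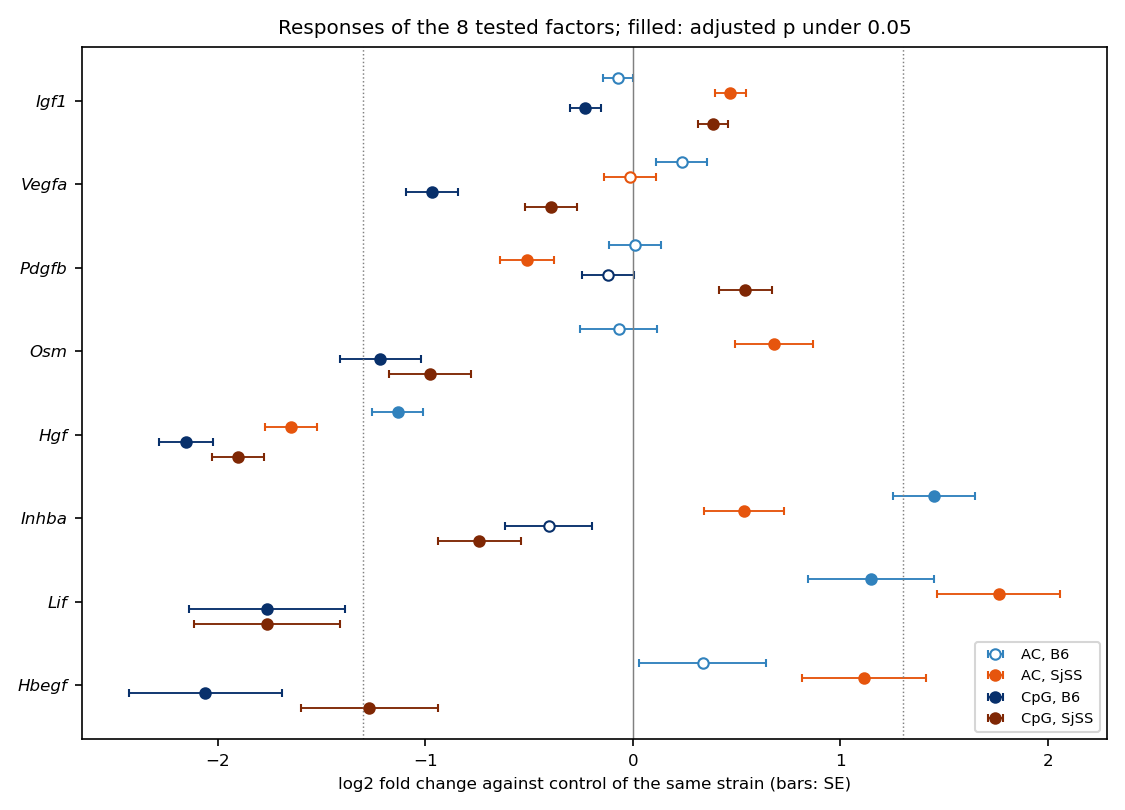
Log2 fold change against control of the same strain (x axis, bars for SE) of the 8 tested factors in 4 responses; filled points passed an adjusted p of 0.05 and dotted lines mark a log2 fold change of 1.3 in size. All CpG points of Hgf, Lif, Osm and Hbegf lie below 0, from -2.15 for Hgf in B6 to -0.98 for Osm in SjSS, and all AC points of Lif and Inhba above 0, from 0.54 to 1.76.

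Between the strains, no factor passed the fold threshold. In control BMDMs 2 factors were higher in SjSS and 2 lower at an adjusted p under 0.05, beside 9.04% and 10.6% of all tested genes, and 0 were called, beside 2.01%. With AC, 2 were higher and 2 lower, beside 24.0% and 25.5%, and 0 called, beside 8.93%. With CpG, 4 were higher and 0 lower, beside 10.2% and 9.57%, and 0 called, beside 2.61%. The interaction of strain and treatment, the SjSS response minus the B6 response, was above 0 for 2 factors and below 0 for 3 with AC, beside 19.6% and 18.3%, and 0 were called, beside 7.53%. By library totals it was above 0 for 0 factors and below 0 for 4, beside 9.15% and 41.9%, and the strain difference with AC was higher for 2 and lower for 3, beside 13.2% and 53.1%. With CpG it was above 0 for 2 and below 0 for 0, beside 3.23% and 2.62%, and 0 were called, beside 0.614%. Counted at an unadjusted p under 0.05, the strain differences held 5, 6 and 5 factors in control, AC and CpG, and the interactions 5 and 3. The share of all tested genes at that unadjusted threshold was not computed, so these counts cannot be read as a trait of the factors. DESeq2 also called 0 in each of the 5 comparisons.

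Before the single factors, the bases just upstream of some of them are shown. Lif and Inhba rose together with AC while Hgf fell, and Areg was counted mainly in 1 group. The search covered 8 RefSeq (GRCm38.p6) promoters of 6 of the factors, the 250 bases before each annotated start. Hbegf, Ereg, Pdgfb and Osm were not searched. Capitals mark matches to any of 8 searched motifs on either strand: TGACGTCA and TGACG for the cAMP response element and its core, GGG and CC around 5 bases of any kind for NF-kB, TGANTCA for AP-1, TTCNNNGAA for STAT, GAAA repeated after any pair of bases for the interferon response element, ACGTG for the hypoxia response element and TATAAA for the TATA box. TGACG lies within TGACGTCA, and ACGTG can overlap it.
Lif, chr11:4257318-4257567, plus strand: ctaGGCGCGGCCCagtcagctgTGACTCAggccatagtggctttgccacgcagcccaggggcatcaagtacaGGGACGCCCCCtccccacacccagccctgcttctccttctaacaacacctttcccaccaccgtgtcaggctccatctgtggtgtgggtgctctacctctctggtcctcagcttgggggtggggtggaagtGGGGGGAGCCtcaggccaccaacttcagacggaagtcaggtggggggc
Inhba, chr13:16011601-16011850, plus strand: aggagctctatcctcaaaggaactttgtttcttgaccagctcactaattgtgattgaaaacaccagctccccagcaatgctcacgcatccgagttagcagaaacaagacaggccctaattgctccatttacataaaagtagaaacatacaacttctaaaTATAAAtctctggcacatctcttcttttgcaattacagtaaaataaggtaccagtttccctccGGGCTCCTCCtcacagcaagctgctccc
Hgf, chr5:16553245-16553494, plus strand: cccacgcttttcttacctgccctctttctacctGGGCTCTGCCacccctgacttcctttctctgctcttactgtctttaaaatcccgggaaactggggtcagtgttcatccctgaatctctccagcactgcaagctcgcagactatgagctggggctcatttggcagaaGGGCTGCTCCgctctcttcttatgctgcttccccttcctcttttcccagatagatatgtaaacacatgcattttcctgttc
Areg, chr5:91139349-91139598, plus strand: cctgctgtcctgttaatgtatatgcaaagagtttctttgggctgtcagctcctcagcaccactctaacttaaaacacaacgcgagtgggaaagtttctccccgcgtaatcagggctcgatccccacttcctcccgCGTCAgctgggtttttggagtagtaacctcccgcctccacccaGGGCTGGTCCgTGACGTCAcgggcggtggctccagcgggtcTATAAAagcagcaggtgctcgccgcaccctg
The Lif stretch held the NF-kB letters and TGANTCA. The Inhba stretch held the NF-kB letters and TATAAA, and the Hgf stretch shown the NF-kB letters alone. Another Hgf stretch, chr5:16553651-16553900, is not shown and held no match to any of the 8 motifs. Of the 6 factors searched, Areg was the only one with TGACGTCA, together with the NF-kB letters, TGACG and TATAAA. Of the 32851 RefSeq promoters searched over the same length, 45.8% held the NF-kB letters, 12.4% TATAAA, 6.75% TGANTCA and 1.55% TGACGTCA. None of the 8 stretches of the 6 searched factors held TTCNNNGAA, which 7.02% of all promoters searched did. A match is a run of letters, not a site shown to be used.

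Of Hbegf, Areg and Ereg, only Hbegf passed the filter on low counts, and it was highest in SjSS BMDMs given AC. Hbegf (chromosome 18, positions 36504927 to 36515805 on GRCm38, minus strand) encodes HB-EGF. In B6 BMDMs its level was 3.49, 2.19 and 3.48 CPM in the control samples, 4.51, 3.44 and 3.68 with AC, and 0.564, 0.213 and 1.37 with CpG. In SjSS BMDMs it was 3.35, 6.06 and 3.64 CPM in control, 8.06, 9.19 and 10.6 with AC, and 1.51, 2.20 and 1.64 with CpG. All CpG samples thus lay below all control samples of their strain, and all AC samples lay above them in SjSS but overlapped them in B6.

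With CpG, Hbegf fell by 2.06 on the log2 scale in B6 (SE 0.37, adjusted p = 8.53e-05, called) and by 1.27 in SjSS (SE 0.33, adjusted p = 0.00297). With AC it rose by 1.11 in SjSS (SE 0.30, adjusted p = 0.00352), a 2.13-fold ratio of means, and its log2 fold change in B6 was 0.34 (SE 0.31, adjusted p = 0.429). The difference between these AC responses was 0.78 (SE 0.43, adjusted p = 0.170), so that the responses were not shown to differ. Hbegf was higher in SjSS than in B6 with AC by 1.26 (SE 0.30, adjusted p = 0.00178) and with CpG by 1.27 (SE 0.39, adjusted p = 0.0274), 2.39-fold and 2.49-fold by means, and the samples of the strains did not overlap in either condition. Without treatment the difference was 0.48 (SE 0.31, adjusted p = 0.296). The AC response in SjSS passed the fold threshold without SjSS control replicate 2 (1.41), the CpG response in SjSS without SjSS control replicate 1 (-1.43), SjSS control replicate 3 (-1.38) or SjSS CpG replicate 2 (-1.45), and the strain difference with AC without B6 AC replicate 1 (1.38) or SjSS AC replicate 1 (1.35). The strain difference with CpG depended on single samples. It was 2.09 without B6 CpG replicate 3, 1.38 without SjSS CpG replicate 1 and 1.33 without SjSS CpG replicate 3, and its adjusted p was 0.109 in a fit of those groups alone and 0.107, 0.106 and 0.105 without B6 CpG replicate 1, B6 CpG replicate 2 and SjSS CpG replicate 2.

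Areg, which encodes amphiregulin (chromosome 5, positions 91139599 to 91148432, plus strand), had 5, 6 and 3 counts in the AC treated SjSS samples and 0 in all control and CpG treated SjSS samples. In B6 it had 0, 2 and 0 counts in control, 1, 0 and 0 with AC and 0 in each CpG sample. With 3 counts over the group as the limit of detection, the AC level in SjSS was at least 5.11-fold higher than control and at least 4.59-fold higher than CpG. The 14 counts of the AC treated SjSS samples compared with 1 count in the AC treated B6 samples, a ratio per scaled total of 15.8 with an exact 95% interval of 2.41 to 670. Intervals and floors cover counting error only. In the fit with no filter, edgeR's adjusted p for AC against control in SjSS was 0.0160, and for AC against CpG in SjSS 0.0208. The strain difference with AC, at 0.0582, and the interaction of strain and AC, at 0.0823, did not pass in that fit.

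Ereg, which encodes epiregulin, lies next to Areg on chromosome 5 (positions 91074622 to 91093646, plus strand), 45952 bases away. Its counts in B6 were 5, 0 and 1 in control, 2, 3 and 3 with AC and 0, 0 and 3 with CpG. In SjSS they were 8, 6 and 10 in control, 3, 20 and 6 with AC and 1, 4 and 0 with CpG. Group sums put SjSS above B6 in control by a ratio of 4.65 (exact 95% interval 1.85 to 13.9) and with AC by 4.10 (1.83 to 10.4), though 20 of the 29 counts with AC came from replicate 2. CpG against control in SjSS had a ratio of 0.232 (0.0691 to 0.620). In the fit with no filter none of the Ereg comparisons passed, with adjusted p of 0.176 for the control strains and 0.137 for CpG in SjSS.

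The gp130 cytokines Lif and Osm lie 16530 bases apart on chromosome 11, and both were lowered by CpG. Lif (positions 4257557 to 4272514, plus strand) encodes leukaemia inhibitory factor. In B6 it had 2.50, 1.25 and 2.40 CPM in control, 4.85, 4.84 and 4.06 with AC, and 0.726, 0.240 and 0.804 with CpG. The SjSS samples had 2.74, 4.76 and 1.78 CPM in control, 9.02, 11.02 and 10.7 with AC, and 0.832, 1.14 and 0.708 with CpG. The AC samples lay above and the CpG samples below all control samples in each strain.

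AC raised Lif by 1.15 in B6 (SE 0.30, adjusted p = 0.00543) and by 1.76 in SjSS (SE 0.30, adjusted p = 4.47e-05, called), 2.24-fold and 3.31-fold by means. CpG lowered it by 1.76 in both B6 (SE 0.37, adjusted p = 0.000482) and SjSS (SE 0.35, adjusted p = 0.000304), and both were called. The AC responses differed by 0.62 (SE 0.42, adjusted p = 0.281), which was not past the threshold with all samples and was at an adjusted p of 0.048 without SjSS control replicate 2. With AC, Lif was higher in SjSS than in B6 by 1.16 (SE 0.29, adjusted p = 0.00243), with no overlap of samples. The strain difference was 0.55 in control (SE 0.31, adjusted p = 0.241) and 0.55 with CpG (SE 0.42, adjusted p = 0.406), where samples overlapped. The AC response in B6 passed the fold threshold without B6 control replicate 1, at 1.32.

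Osm (positions 4236420 to 4241026, plus strand) encodes oncostatin M. In B6 it had 14.9, 18.04 and 21.0 CPM in control, 15.7, 17.4 and 18.3 with AC, and 6.39, 8.28 and 8.58 with CpG. SjSS samples had 13.6, 19.5 and 9.41 CPM in control, 20.4, 24.0 and 23.0 with AC, and 7.22, 8.08 and 6.07 with CpG. The SjSS control samples were spread over a range of which the lowest was close to the CpG samples, and the AC samples lay above all of them.

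CpG lowered Osm by 1.22 in B6 (SE 0.19, adjusted p = 2.32e-05) and by 0.98 in SjSS (SE 0.20, adjusted p = 0.000332). Without B6 control replicate 1 the B6 value was -1.34, past the fold threshold. AC raised Osm by 0.68 in SjSS (SE 0.19, adjusted p = 0.00419) and stood at -0.07 in B6 (SE 0.18, adjusted p = 0.811), and the interaction of 0.75 passed the test (SE 0.26, adjusted p = 0.0306). Its adjusted p rose above 0.05, up to 0.086, without any 1 of B6 control replicates 2 and 3, B6 AC replicates 1 and 2, SjSS control replicates 1 and 3 and SjSS AC replicates 2 and 3. The strain difference in Osm with AC was 0.39 (SE 0.18, adjusted p = 0.0864), with no overlap of samples, and had an adjusted p of 0.00111 in a fit of those groups alone. With CpG the difference did not pass, and the difference in control, -0.36 (SE 0.19, adjusted p = 0.196), had an adjusted p of 0.015 without SjSS control replicate 2.

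The scaling of the AC treated SjSS samples bears on these small changes. Their TMM factors were 0.833 to 0.838, against 1.10 to 1.13 in SjSS control, so that scaling by library totals instead moved the median log2 fold change of all tested genes for AC in SjSS from -0.02 to -0.43. On that scale Osm rose by 0.27 with AC in SjSS (adjusted p = 0.199) and its interaction was 0.41 (adjusted p = 0.199), both short of the threshold. Lif stayed called at 1.35 (adjusted p = 0.000554), and Hbegf stood at 0.70 (adjusted p = 0.0493). Library totals were chosen as an alternative after the factors were seen.

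Inhba was raised by AC in both strains, and of the 8 tested factors had the largest log2 difference between the untreated strains. Inhba (chromosome 13, positions 16011851 to 16031621, plus strand) encodes the beta A chain of activin A. In B6 it had 10.01, 5.05 and 8.17 CPM in control, 23.8, 20.8 and 19.4 with AC, and 6.87, 3.89 and 6.74 with CpG. In SjSS it had 13.6, 17.95 and 14.96 CPM in control, 19.7, 25.1 and 22.3 with AC, and 8.70, 9.02 and 10.05 with CpG. The control samples of SjSS lay above all those of B6, whereas the AC samples of the strains overlapped.

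AC raised Inhba by 1.45 in B6 (SE 0.20, adjusted p = 1.01e-05, called), 2.76-fold by means, and by 0.54 in SjSS (SE 0.19, adjusted p = 0.0230), 1.44-fold by means. The responses differed by -0.92 (SE 0.27, adjusted p = 0.0127), a smaller rise in SjSS from a higher start. In control, Inhba was higher in SjSS by 0.99 (SE 0.20, adjusted p = 0.00179), and with CpG by 0.65 (SE 0.21, adjusted p = 0.0343), whereas the difference with AC was 0.07 (SE 0.19, adjusted p = 0.783). CpG lowered Inhba by 0.74 in SjSS (SE 0.20, adjusted p = 0.00402). In B6 the CpG value was -0.41 (SE 0.21, adjusted p = 0.106), and with the replicate number as a block it was -0.40 (adjusted p = 0.0263). Without B6 control replicate 2, the lowest control sample, the AC response in B6 was 1.23 and no longer called, and the CpG response in B6 had an adjusted p of 0.0076. The AC rise in SjSS had adjusted p of 0.092, 0.063 and 0.097 without SjSS control replicate 1, SjSS control replicate 3 and SjSS AC replicate 2, and was 0.12 by library totals (adjusted p = 0.602). The strain difference with CpG had adjusted p of 0.16, 0.060, 0.069 and 0.095 without B6 CpG replicate 2 and SjSS CpG replicates 1, 2 and 3.

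Markers of fibroblasts moved with Inhba, and less tightly with Lif and Hbegf, from sample to sample. The 10 markers (Col1a1, Col1a2, Col3a1, Dcn, Lum, Pdgfra, Col6a1, Thy1, Cdh11 and Postn), mostly Col1a1 and Col1a2, summed to 159, 54.7 and 122 CPM in B6 control, 139, 109 and 95.1 in B6 AC and 121, 49.4 and 107 in B6 CpG. In SjSS they summed to 191, 266 and 237 CPM in control, 220, 276 and 257 with AC and 175, 230 and 206 with CpG. All SjSS sums lay above all B6 sums, and B6 replicate 2 was lowest in control and CpG for the sum and for Inhba, Lif and Hbegf alike. Lum was at 0 in 3 of the 6 groups, and of the 10 markers 2 or 3 stayed under 1 CPM in each group.

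After the group means were taken off, the correlation with the log2 marker sum over the 18 samples was 0.97 for Inhba, 0.79 for Lif and 0.73 for Hbegf, and lay between -0.26 and 0.52 for the other 5 tested factors. These points share their libraries, and the correlations are descriptions. By group, the mean marker sum was 112 CPM in B6 control and 114 in B6 AC, between which Inhba rose 2.76-fold, and 231 and 251 CPM in SjSS control and AC, between which Lif rose 3.31-fold. Between the strains, where these sums were 112 and 231 CPM in control, Inhba was 2.00-fold higher in SjSS. With AC, at 114 and 251 CPM, Lif was 2.24-fold, Hbegf 2.39-fold and Inhba 1.05-fold higher in SjSS. The part of fibroblast-type RNA in the strain differences and in the spread of these 3 factors was not tested.

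**Figure D3:**
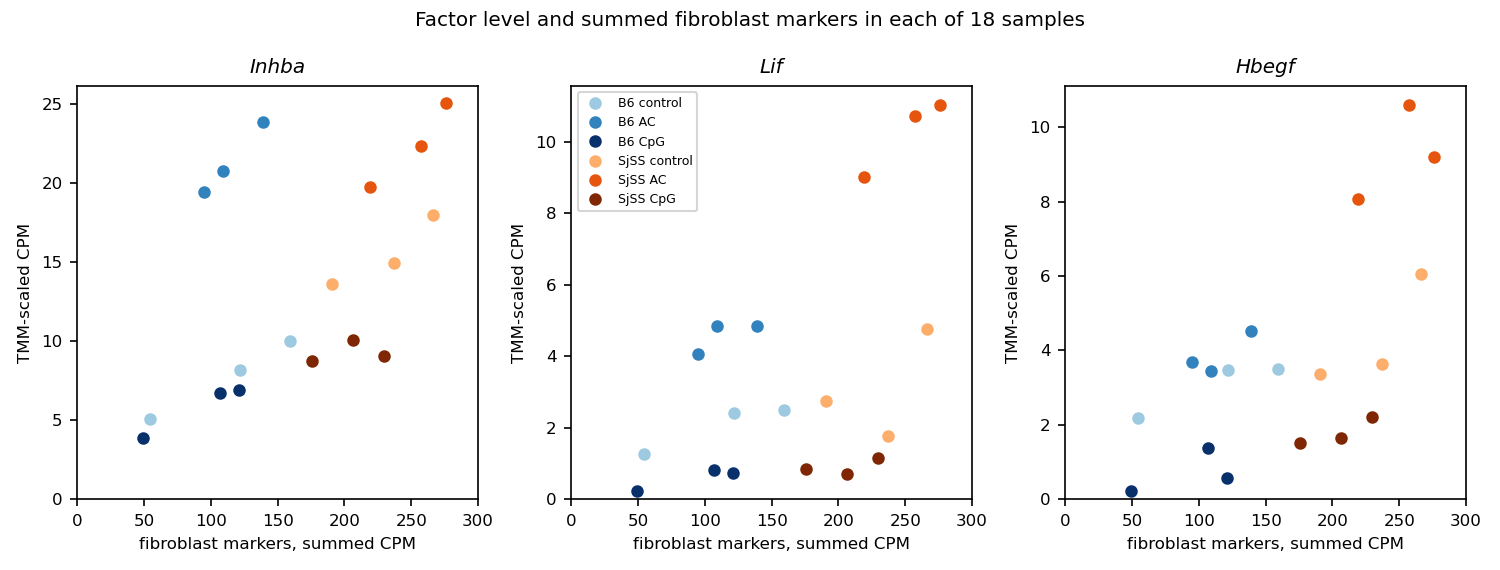
TMM-scaled CPM of Inhba, Lif and Hbegf (y axes) against the summed CPM of 10 fibroblast markers (x axis) in each of the 18 samples, coloured by group. Within a group, samples with a higher sum had more Inhba except in CpG treated SjSS. The AC samples of B6 had 19.4 to 23.8 CPM of Inhba at sums of 95.1 to 139 CPM. The control samples of B6 had 5.05 to 10.01 CPM at sums of 54.7 to 159 CPM.

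Hgf fell in every response. Hgf (chromosome 5, positions 16553495 to 16620152, plus strand) encodes hepatocyte growth factor. In B6 it had 43.6, 54.2 and 46.6 CPM in control, 21.5, 21.9 and 22.4 with AC, and 9.98, 9.83 and 12.6 with CpG. The levels in SjSS were 75.6, 64.0 and 52.0 CPM in control, 19.8, 21.2 and 20.1 with AC, and 18.7, 18.1 and 14.5 with CpG. Neither strain had a treated sample near its controls, and in each strain the CpG samples lay below all AC samples. In SjSS the AC level was above CpG by 0.25 on the log2 scale, which did not pass the test (SE 0.13, adjusted p = 0.102).

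AC lowered Hgf by 1.13 in B6 (SE 0.12, adjusted p = 5.76e-07) and by 1.65 in SjSS (SE 0.12, adjusted p = 9.77e-10, called), to means 2.19-fold and 3.13-fold below control. CpG lowered it by 2.15 in B6 (SE 0.13, adjusted p = 3.99e-11) and by 1.90 in SjSS (SE 0.13, adjusted p = 2.19e-10), both called. The AC responses differed by -0.51 (SE 0.17, adjusted p = 0.0237), a larger fall in SjSS, whereas the CpG responses differed by 0.25 (SE 0.18, adjusted p = 0.458). The AC difference had adjusted p of 0.063, 0.079 and 0.051 without B6 control replicate 1, SjSS control replicate 1 and SjSS AC replicate 1, and was -0.86 by library totals (adjusted p = 0.000313). Between strains, Hgf was higher in SjSS in control by 0.41 (SE 0.12, adjusted p = 0.0201) and with CpG by 0.66 (SE 0.13, adjusted p = 0.00136), and with AC the difference was -0.10 (SE 0.12, adjusted p = 0.508), or -0.40 by library totals (adjusted p = 0.00697). The control difference rested on few samples, with adjusted p between 0.051 and 0.12 without B6 control replicate 1 or 3 or SjSS control replicate 1 or 2. The genes Gm43489 and Gm42975 overlap Hgf, with 254 and 43 counts over all samples against 26629 for Hgf.

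Igf1, the most abundant factor, moved little in size, and with CpG in opposite directions in the strains. Igf1 (chromosome 10, positions 87858265 to 87937042, plus strand) encodes insulin-like growth factor 1. In B6 it had 559, 571 and 478 CPM in control, 523, 483 and 526 with AC, and 458, 438 and 476 with CpG. In SjSS the levels were 427, 427 and 394 CPM in control, 567, 608 and 554 with AC, and 542, 596 and 495 with CpG. All treated SjSS samples lay above the SjSS controls, and all B6 CpG samples lay below the B6 controls.

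Igf1 rose in SjSS by 0.47 with AC (SE 0.07, adjusted p = 2.10e-05) and by 0.39 with CpG (SE 0.07, adjusted p = 0.000193). In B6 it fell by 0.23 with CpG (SE 0.07, adjusted p = 0.0123) and stood at -0.07 with AC (SE 0.07, adjusted p = 0.496). The responses of the strains differed by 0.54 with AC (SE 0.10, adjusted p = 0.000448) and by 0.62 with CpG (SE 0.10, adjusted p = 0.00163). By library totals the rise with AC in SjSS was 0.06 (adjusted p = 0.514) and the AC interaction 0.20 (adjusted p = 0.126), whereas the rise with CpG was 0.26 (adjusted p = 0.00598) and the CpG interaction 0.67 (adjusted p = 0.000845). In control, Igf1 was lower in SjSS by 0.37 on the log2 scale (log2 fold change -0.37, SE 0.07, adjusted p = 0.00187), and with CpG higher by 0.25 (SE 0.07, adjusted p = 0.0217). With AC the strain difference was 0.17 (SE 0.07, adjusted p = 0.0576), an adjusted p that was 0.0497 with the replicate block, 0.0189 in DESeq2, 0.0291 with DESeq2 size factors and 0.0150 in a fit of those groups alone, whereas by library totals the difference was -0.13 (adjusted p = 0.145). The fall with CpG in B6 had adjusted p of 0.052, 0.069 and 0.054 without B6 control replicate 1, B6 control replicate 2 and B6 CpG replicate 2. The strain difference with CpG had adjusted p of 0.054, 0.091, 0.056 and 0.13 without B6 CpG replicates 1 and 2 and SjSS CpG replicates 1 and 2. Igf1os, an antisense gene within Igf1, had 234 counts against 430612.

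The angiogenic factors Vegfa and Pdgfb parted from each other: CpG lowered Vegfa in both strains, and Pdgfb changed in SjSS BMDMs, down with AC and up with CpG. Vegfa (chromosome 17, positions 46016993 to 46032369, minus strand) had 116, 138 and 147 CPM in B6 control, 154, 149 and 169 with AC, and 56.7, 72.2 and 75.8 with CpG. In SjSS it had 96.5, 123 and 81.1 CPM in control, 93.7, 99.6 and 104 with AC, and 81.7, 74.2 and 72.1 with CpG. B6 CpG samples lay well below B6 controls, whereas CpG and control samples overlapped in SjSS.

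Vegfa fell with CpG by 0.97 in B6 (SE 0.13, adjusted p = 1.81e-06) and by 0.39 in SjSS (SE 0.12, adjusted p = 0.0120), the latter with an adjusted p of 0.12 without SjSS control replicate 2. The difference between these responses was 0.58 (SE 0.18, adjusted p = 0.0617), and it was below 0.05 without B6 control replicate 1 (0.041) or SjSS control replicate 2 (0.010), with the replicate block (0.0170) and in DESeq2 (0.0275). With AC the log2 fold change was 0.24 in B6 (SE 0.12, adjusted p = 0.147) and -0.01 in SjSS (SE 0.12, adjusted p = 0.936), and by library totals -0.42 in SjSS (adjusted p = 0.00458). The AC interaction was -0.25 (SE 0.17, adjusted p = 0.293), and by library totals -0.59 (adjusted p = 0.00756). Vegfa was lower in SjSS with AC, at a log2 fold change of -0.67 (SE 0.12, adjusted p = 0.000194), and in control at -0.42 (SE 0.12, adjusted p = 0.0231). The control difference had adjusted p between 0.066 and 0.13 without B6 control replicate 2 or 3 or SjSS control replicate 1 or 3. With CpG it was 0.16 (SE 0.13, adjusted p = 0.427).

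Pdgfb (chromosome 15, positions 79995874 to 80014977, minus strand) had 75.6, 61.4 and 70.9 CPM in B6 control, 64.3, 73.1 and 71.9 with AC, and 69.6, 57.01 and 64.6 with CpG. In SjSS it had 53.8, 64.2 and 49.4 CPM in control, 35.6, 45.2 and 36.5 with AC, and 80.4, 96.6 and 66.6 with CpG. The 3 B6 groups overlapped, whereas the 3 SjSS groups were set apart, AC lowest and CpG highest.

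In SjSS, Pdgfb fell by 0.51 with AC (SE 0.13, adjusted p = 0.00217) and rose by 0.54 with CpG (SE 0.13, adjusted p = 0.00124). In B6 its log2 fold change was 0.01 with AC (SE 0.13, adjusted p = 0.963) and -0.12 with CpG (SE 0.13, adjusted p = 0.436). By library totals Pdgfb stood at -0.30 with CpG in B6 (adjusted p = 0.0481) and at -0.06 with AC in B6 (adjusted p = 0.735). In SjSS it stood at -0.92 with AC (adjusted p = 4.18e-06) and 0.42 with CpG (adjusted p = 0.00963) on that scale. The responses of the strains differed by -0.52 with AC (SE 0.18, adjusted p = 0.0287) and by 0.66 with CpG (SE 0.18, adjusted p = 0.0342). Both differences rested on many samples at once. The first had adjusted p up to 0.091 without any 1 of B6 control replicate 2, B6 AC replicates 2 and 3, SjSS control replicate 2 and SjSS AC replicates 1 and 3. The second had adjusted p up to 0.096 without any 1 of B6 control replicates 1 and 3, B6 CpG replicates 2 and 3, SjSS control replicates 1 and 3 and SjSS CpG replicates 1 and 2, and 0.0671 in a fit of its 4 groups alone. With AC, Pdgfb was lower in SjSS than in B6, at a log2 fold change of -0.83 (SE 0.13, adjusted p = 2.50e-05), with no overlap. The strain difference was -0.32 in control (SE 0.13, adjusted p = 0.0883, and 0.044 without SjSS control replicate 2) and 0.35 with CpG (SE 0.13, adjusted p = 0.0604, and 0.012 without SjSS CpG replicate 3). By library totals the difference with CpG was 0.44 (adjusted p = 0.0174).

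**Figure D4:**
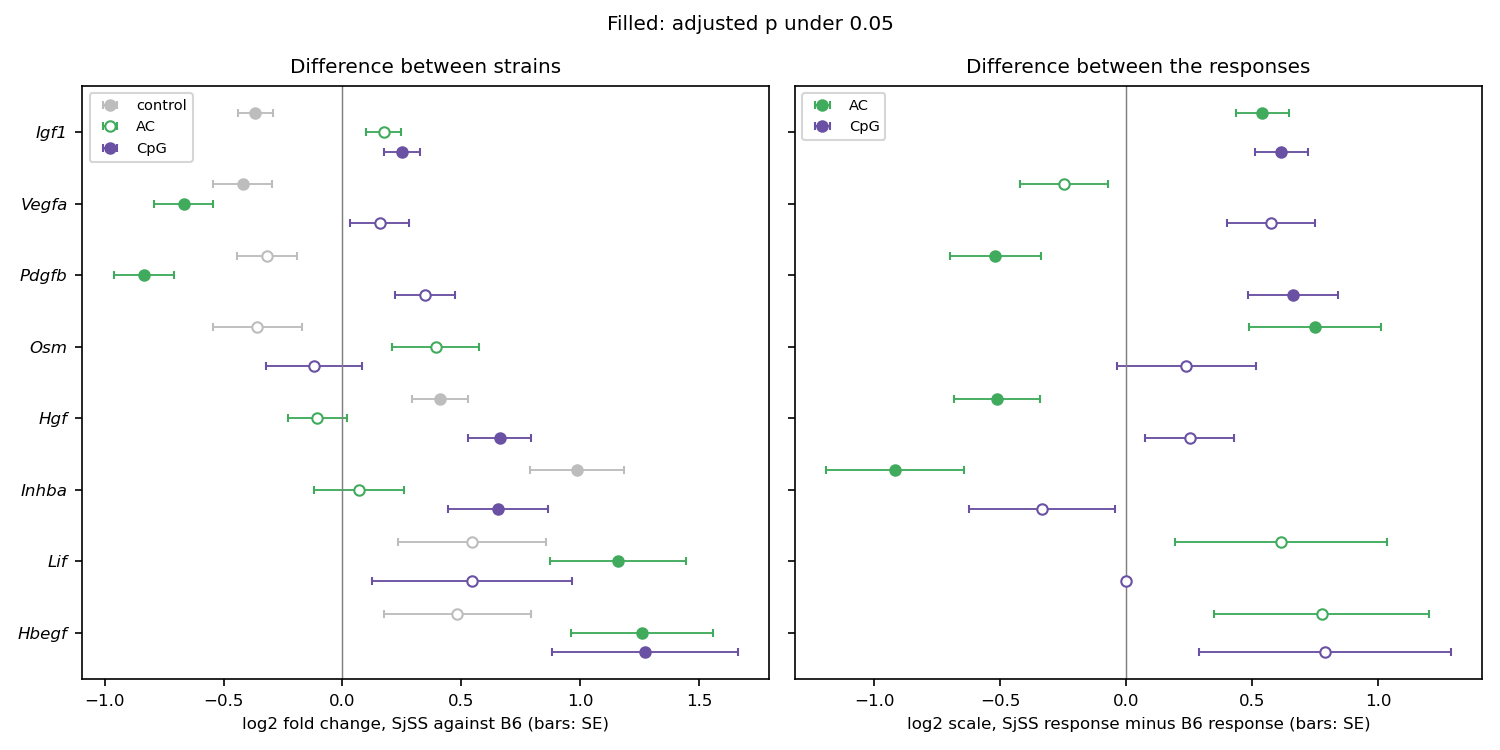
Left, log2 fold change of SjSS against B6 in control, AC and CpG treated BMDMs; right, SjSS response minus B6 response on the log2 scale; bars show SE (none is drawn for Lif with CpG, where the difference was near 0 and the SE could not be computed reliably) and filled points passed an adjusted p of 0.05. With AC, Hbegf and Lif lie above 1 and Pdgfb and Vegfa below -0.6; Igf1 and Pdgfb are filled in both interactions.

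Set directly against each other, AC left most factors higher than CpG did. In B6, 6 of 8 factors were higher with AC and 0 lower, beside 23.7% and 22.4% of all tested genes, and 3 were called, beside 7.11%: Lif at 2.91 (SE 0.36), Hbegf at 2.40 (SE 0.37) and Inhba at 1.86 (SE 0.21). In SjSS, 5 were higher and 1 lower, beside 25.7% and 26.5%, and 3 were called, beside 9.18%: Lif at 3.53 (SE 0.34), Hbegf at 2.38 (SE 0.32) and Osm at 1.66 (SE 0.20). Lif reached 7.77-fold by means in B6 and 11.5-fold in SjSS. Pdgfb was the factor lower with AC than with CpG in SjSS, at -1.05 (SE 0.13, adjusted p = 1.23e-06). Inhba in SjSS stood at 1.27 (SE 0.20, adjusted p = 2.38e-05) and passed the fold threshold without SjSS AC replicate 1 (1.36) or SjSS CpG replicate 3 (1.34). Vegfa in SjSS stood at 0.38 (SE 0.12, adjusted p = 0.0157), and at 0.09 by library totals (adjusted p = 0.521). The T-lineage markers, which thymocytes express, summed to 5.18 to 6.04 CPM in AC treated B6 against 8.31 to 10.3 in B6 control, and to 14.6 to 18.9 CPM in AC treated SjSS against 10.7 to 12.1 in SjSS control. Most of each sum was Cd4, which fell by 1.27 with AC in B6 (SE 0.14, adjusted p = 7.41e-07), while Cd5 rose by 1.25 (SE 0.35, adjusted p = 0.00809). In SjSS, Cd4 rose by 0.44 with AC (SE 0.13, adjusted p = 0.00662) and Cd5 stood at 0.76 (SE 0.34, adjusted p = 0.0627). Rag1 and Dntt, genes of immature T cells, had 24 and 18 counts with AC in B6, of 27 and 24 over all 18 samples. Both were at 0 in B6 control and CpG, and Rag1 also in SjSS control and CpG. Lck rose by 2.11 with AC in SjSS (SE 0.47, adjusted p = 0.000803) and stood at 1.02 with AC in B6 (SE 0.50, adjusted p = 0.119). The part of thymocyte RNA in the AC values was not tested.

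Ligands, receptors and regulators of the same pathways were taken from 8 lists of 81 genes. The deposited table held 76 of them, and 61 were tested. With AC, 11 (18%) rose and 16 (26.2%) fell in B6, beside 20.0% and 18.3% of all tested genes, and 16 (26.2%) rose and 11 (18%) fell in SjSS, beside 28.6% and 29.4%. With CpG, 11 (18%) rose and 23 (37.7%) fell in B6, beside 28.1% and 29.8%, and 10 (16.4%) rose and 23 (37.7%) fell in SjSS, beside 27.8% and 26.4%. Those called were 4 that rose and 5 that fell for AC in B6, 7 and 2 for AC in SjSS, 4 and 12 for CpG in B6, and 3 and 10 for CpG in SjSS. In all, 14.8%, 14.8%, 26.2% and 21.3% of the tested list genes were called in these responses, beside 4.47%, 12.9%, 12.7% and 9.26% of all tested genes. A gene named below was the largest called change of its list in a comparison, and could be called in others too.

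Met, the receptor of HGF, went up as its ligand went down. It had 25.1, 26.4 and 24.7 CPM in B6 control and 118, 105 and 115 with AC, and 20.3, 19.4 and 16.4 CPM in SjSS control and 119, 103 and 123 with AC. The groups were far apart in both strains. Its log2 fold change with AC was 2.15 in B6 (SE 0.09, adjusted p = 2.14e-12) and 2.62 in SjSS (SE 0.09, adjusted p = 1.13e-14), and with CpG 2.00 in B6 (SE 0.09, adjusted p = 4.29e-13) and 2.18 in SjSS (SE 0.09, adjusted p = 3.00e-13). Of the 6 tested genes of the HGF list, Spint2, an inhibitor of the proteases that activate HGF, had the largest change with CpG in B6, 2.10 (SE 0.29, adjusted p = 4.14e-06), and was lower in SjSS than B6 with CpG at -1.44 (SE 0.28, adjusted p = 0.00125).

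Around the EGF ligands, the called gene with the largest AC response in SjSS was Nrg1, which encodes neuregulin 1. It had 0.387, 0.296 and 0.417 CPM in SjSS control and 2.04, 1.79 and 1.75 with AC, beside 1.20, 1.65 and 1.58 in B6 control and 1.01, 1.40 and 0.914 with AC. SjSS started below B6 and ended above it. Nrg1 rose by 2.31 with AC in SjSS (SE 0.26, adjusted p = 2.62e-07) and by 1.61 with CpG (SE 0.26, adjusted p = 3.75e-05), and was lower in SjSS control at -1.97 (SE 0.26, adjusted p = 2.88e-05). Egf, with only 258 counts over all 18 samples, fell by 1.38 with AC in B6 (SE 0.45, adjusted p = 0.0194). Of the 10 tested receptor and shedding genes, 1 was called in the 7 responses and strain differences: Rhbdf2, which encodes iRhom2, the partner that brings the sheddase ADAM17 to the cell surface. It had 77.2, 81.2 and 62.2 CPM in SjSS control and 238, 243 and 242 with AC, with 110, 107 and 115 CPM in B6 control and 102, 118 and 111 with AC. The AC samples of SjSS stood above all the rest, and the rise was 1.72 (SE 0.08, adjusted p = 9.35e-13).

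In the VEGF and PDGF list, Vegfc, a lymphatic growth factor, rose with AC by 1.80 in B6 (SE 0.36, adjusted p = 0.000627) and by 1.81 in SjSS (SE 0.36, adjusted p = 0.000257), from levels under 0.5 CPM, and was also called with CpG, at 2.38 in B6 and 1.68 in SjSS. Pdgfc fell by 2.90 with CpG in B6 (SE 0.14, adjusted p = 2.76e-12), from 34.5, 43.7 and 41.4 CPM to 3.91, 5.78 and 6.39 CPM, and by 1.75 with CpG in SjSS (SE 0.13, adjusted p = 1.96e-09). Flt1, a VEGF receptor with only 247 counts over all 18 samples, fell by 2.08 with CpG in SjSS (SE 0.67, adjusted p = 0.0132). Kdr, the main signalling receptor of VEGF-A, had 0.854, 1.51 and 1.60 CPM in AC treated B6 and 10.4, 10.2 and 12.7 CPM in AC treated SjSS BMDMs. The strains were separate by a wide margin, at 3.07 (SE 0.28, adjusted p = 2.81e-08). Pdgfd was higher in SjSS with CpG by 1.94 (SE 0.48, adjusted p = 0.00703), at levels under 0.4 CPM.

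In the activin list called genes were few: 1 of 11 tested genes was called with CpG in B6 and 0 in the other responses. In the IGF list of 6 tested genes, 1 called gene rose and 1 fell with AC in B6, and 1 fell with CpG in each strain. In the OSM and LIF list of 7, 1 rose and 1 fell with AC in B6, 1 fell with AC in SjSS and 2 fell with CpG in each strain. Of all tested genes, 4.47% and 12.9% were called with AC in B6 and SjSS, and 12.7% and 9.26% with CpG. Igfbp5, a binding protein of IGF-1, rose by 1.88 with AC in B6 (SE 0.29, adjusted p = 3.58e-05) and fell by 2.05 with CpG in SjSS (SE 0.38, adjusted p = 0.000145). It was lower in SjSS than in B6 with AC at -1.71 (SE 0.29, adjusted p = 7.49e-05) and with CpG at -1.54 (SE 0.40, adjusted p = 0.00993). Igf1r, the IGF-1 receptor, fell by 1.62 with CpG in B6 (SE 0.11, adjusted p = 3.49e-10) and by 1.22 in SjSS (adjusted p = 1.73e-08). Il11, a gp130 cytokine like Lif, rose by 2.65 with AC in B6 (SE 0.61, adjusted p = 0.00189), from 0.272, 0.125 and 0.142 CPM to 1.81, 0.681 and 1.00 CPM. Lifr, the receptor of LIF, fell in all 4 responses and was called in each, by 1.42 in B6 and 1.39 in SjSS with AC (SE 0.18 for both) and by 2.02 in B6 and 1.55 in SjSS with CpG (SE 0.19 and 0.18). With CpG, Il11 fell by 2.20 in B6 (SE 0.92, adjusted p = 0.0489) and by 2.79 in SjSS (SE 0.82, adjusted p = 0.00718), and with AC it was lower in SjSS than B6 at -1.40 (SE 0.57, adjusted p = 0.0493). Smad7, the inhibitor that activin and TGF-beta signals induce, fell by 2.39 with CpG in B6 (SE 0.14, adjusted p = 2.99e-11). In the list of fibroblast growth factors, Fgf1 fell by 1.76 with AC in B6 (SE 0.16, adjusted p = 5.32e-08), by 4.58 with CpG in B6 (SE 0.21, adjusted p = 7.44e-13) and by 3.53 with CpG in SjSS (SE 0.19, adjusted p = 1.19e-11).

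**Figure D5:**
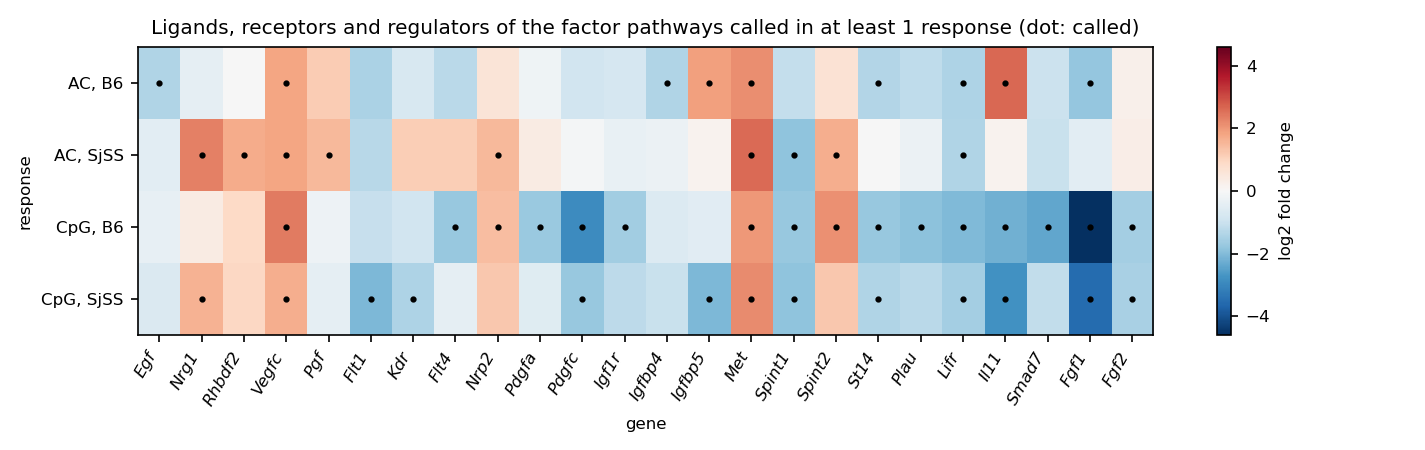
Log2 fold change (colour) of the 24 listed pathway genes called in at least 1 of 4 responses (rows), with dots where called. Met and Vegfc are red in all 4 rows, and Fgf1 is deepest blue with CpG, at -4.58 in B6.

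Genes whose log2 CPM followed a factor closely over the 18 samples are given as descriptions, since all samples share the 6 groups. Hbegf was like Cyr61 (Pearson r 0.95) and Lif (0.94). Inhba was like Timp1 (0.97) and Wnt5a (0.96), and Lif most like Rcan1, Mmd and Dusp5 (each 0.95). Hgf was most like Gcnt1, Rasa3 and Dhrs3 (each 0.98). Osm was most like Gnptg, Klf4 and Crem (each 0.96), Vegfa like Ankrd28 (0.95), Map2k3 (0.93) and Rhov (0.92), Pdgfb like Yod1 (0.90), Zmym2 (0.89) and Exoc8 (0.88), and Igf1 like Tomm20 (0.87) and Rpl22 (0.83). Among the factors themselves, Lif and Inhba (0.90), Osm and Lif (0.85) and Hbegf and Inhba (0.84) came next to Hbegf and Lif, and Pdgfb was opposed to Lif (-0.51).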

How the data were processed

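RNA of BMDMs from B6 and SjSS mice was sequenced by the authors, whose alignment was by STAR to the build mm10 and whose quantification was by the E/M method of Partek. The deposited values are estimated counts, not normalized, of which 41.1% were not whole (tolerance 1e-06), and they were rounded to whole numbers here. Whether counting used strand is not stated in the sources used here. After the wash, the incubation was 3 h by the labels, and the study's methods state a longer one.

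Counts were analysed with R 4.3.3, DESeq2 1.42.0, limma 3.58.1 and edgeR 4.0.16. Tables and plots were made in Python 3.11.15, pandas 2.3.3, numpy 2.4.6, scipy 1.17.1 and matplotlib 3.10.9. Genes were kept by filterByExpr and scaled by TMM. A quasi-likelihood model with a mean for each of 6 groups was fitted to all 18 samples, over 11 comparisons, with Benjamini-Hochberg adjustment within each. The SE is the log2 fold change divided by the square root of F. Coordinates are those of GENCODE M21 on GRCm38, the build mm10, and 8 of the 10 factors start at the same base in the deposited table. Inhba stops at 16027212 in the deposited table and at 16031621 in GENCODE M21. Its level per kilobase used the GENCODE exon length of 6390 bases, and the effect of this on its place in the order was not tested. Likeness, and the factor values in the fibroblast correlations, took log2 CPM after a prior count of 2 was added. The fibroblast marker sum was the log2 of summed CPM, with no prior count. Gene positions, exon lengths and overlaps came from the same annotation.

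The factors, gene lists and markers were chosen with earlier results of these data known. The genes named with values are the 10 factors, the largest called change of each list in the 4 responses and 3 strain differences, and the 3 genes most like each tested factor, some of which are not reported here. Alternatives were DESeq2's Wald test, DESeq2 size factors, no filter, other fold thresholds, the compared groups alone, leaving out each sample in turn, a block for the replicate number and, added after the data were seen, library totals. Same-numbered samples deviated together with correlations of 0.0198 to 0.264, with all 3 pairs over 0.1 for B6 control and B6 CpG only. Samples of unequal number, in different groups of a strain, had correlations of -0.252 to 0.0745. The scripts were tested on simulated data: of 200 genes changed by 2 on the log2 scale among 15420, the test recovered 178 for AC in SjSS, with 2 wrong calls. For the interaction of strain and AC it recovered 168, with 3 wrong calls.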

Additional observations from a re-analysis of the deposited data

Results flagged for a closer look

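For 5 factors the response to AC differed between the strains by the interaction test of edgeR (SjSS response minus B6 response, log2 scale, Benjamini-Hochberg adjusted p). The difference was -0.92 for Inhba (SE 0.27, adjusted p = 0.0127), whose rise was smaller in SjSS. It was 0.75 for Osm (SE 0.26, adjusted p = 0.0306) and 0.54 for Igf1 (SE 0.10, adjusted p = 0.000448), which rose in SjSS and did not pass the test in B6, and -0.52 for Pdgfb (SE 0.18, adjusted p = 0.0287), which fell in SjSS. It was -0.51 for Hgf (SE 0.17, adjusted p = 0.0237), whose fall was larger in SjSS. By library totals Inhba, Pdgfb and Hgf stood further from 0, at -1.26, -0.86 and -0.86, whereas Igf1 at 0.20 and Osm at 0.41 had adjusted p of 0.126 and 0.199, and Vegfa at -0.59 passed with 0.00756.

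For 2 factors the response to CpG differed between the strains by the same test, at 0.62 for Igf1 (SE 0.10, adjusted p = 0.00163) and 0.66 for Pdgfb (SE 0.18, adjusted p = 0.0342). Both had their SjSS samples above control and their B6 means below it.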

How the results depend on the processing

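The counts of called factors were kept by DESeq2's test, DESeq2 size factors, the compared groups alone and the replicate block, and differed by no more than 1 with no filter, which added Areg for AC against control and AC against CpG in SjSS. Of 528 single values under these and library totals, 523 had the call of the values reported above, and the other 5 gained one by library totals (Osm with CpG in B6, Hbegf with CpG in SjSS and between strains with CpG, Vegfa for AC against CpG in B6 and Pdgfb for the same in SjSS). By library totals the count for the strain difference with CpG was 1 (Hbegf). Without a fold threshold the counts were 3 and 7 for AC in B6 and SjSS, 6 and 8 for CpG, 4, 4 and 4 for the strain differences in control, AC and CpG, 5 and 2 for the interactions with AC and CpG, and 6 and 6 for AC against CpG. With a fold change over 1.3 they were 3, 7, 5, 8, 3, 4, 3, 5, 2, 6 and 6 in the same order. Leaving out a sample gave 0 to 2 for AC in B6, 2 to 3 for AC in SjSS, 3 to 4 for CpG in B6, 2 to 3 for CpG in SjSS, 0 to 1 for the strain differences with AC and with CpG, 0 to 0 for that in control and both interactions, 3 to 3 for AC against CpG in B6 and 3 to 4 in SjSS. Of 624 values with a sample left out, 1 lost its call, 13 gained one, and 0 called values changed sign, though 25 uncalled values did over all alternatives. The cause was not tested.

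The replicate number as a block, set within each strain or, for strain differences, across both strains, changed no call. It moved 4 results across an adjusted p of 0.05: Inhba with CpG in B6 (0.0263), Vegfa in the CpG interaction (0.0170), Hgf for AC against CpG in SjSS (0.0379) and Igf1 between strains with AC (0.0497). For strain differences, such as that of Igf1, the block joined samples of mice of different strains by number alone. Within a strain, same-numbered samples had correlated deviations over 0.1 in 9 of 18 pairs. Areg and Ereg, with 17 and 75 counts over all samples, were at the limit of this depth, and 3 samples a group limit the precision of all others.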
